A study of Mus musculus with 6 samples.

Results

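The 11 splicing events described here lay in 8 genes of the Golgi, the endosomes and autophagy: Gorasp2, Trappc9, Rufy3, Yipf2, Sh3glb2, Atg7, Tex264 and Large2. They were chosen from the deposited lists of events that differed upon Sfpq knockdown, as the intervals within these genes whose edges matched exon or intron edges, and they were 11 of 643 distinct events in 8 of 581 genes. The cells were P19, a mouse embryonal carcinoma line labelled as mouse stem cell, with 3 control samples and 3 samples under SFPQ knockdown, transfected with a control siRNA or with a pool of siRNAs against Sfpq, which encodes an RNA-binding protein of the nucleus. The samples were bulk cultures, and a knockdown lowers the protein without removing its gene. There were 3 lists, one for each replicate number, and they are called list 1, list 2 and list 3. Which control and knockdown samples were compared for each list is not stated, so lists could share samples, and an event in more than 1 list need not have been seen in independent samples. The types of event are the cassette exon, which is included or skipped whole, the shifted donor or acceptor site, and the retained intron. The lists give position and type alone, with no read count, level or direction, so the depth behind an event is unknown, no sample can be checked by marker genes, and no exon can be said to be more included or more skipped. Sfpq itself had 0 listed events, and without levels the knockdown could not be checked from the lists.

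Proteins and lipids leave the endoplasmic reticulum for the Golgi, a stack of membrane cisternae in which sugar chains are built, and move on to the surface or to endosomes and lysosomes. Tethering complexes and Rab GTPases decide which membranes meet, and BAR domain proteins bend them. In autophagy a double membrane closes around cell contents and carries them to the lysosome, and a ubiquitin-like conjugation system led by Atg7 attaches LC3 proteins to that membrane. Short exons and tandem splice sites whose length is a multiple of 3 can change a few amino acids without losing the protein. Other lengths shift the frame when they lie in coding sequence.

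Some of these events can be read directly in the mRNA. The sequences below are from the GENCODE M21 transcripts (GRCm38, the assembly of mm10), 5′ to 3′, with the listed bases in capitals and 15 nt of each neighbouring exon in lower case. They show the coding cassette exons of Rufy3 (chr5:88598436-88598489, plus strand), Trappc9 (chr15:73042177-73042203, minus strand), Sh3glb2 (chr2:30346059-30346073, minus strand) and Atg7 (chr6:114677940-114678057, plus strand).
Rufy3: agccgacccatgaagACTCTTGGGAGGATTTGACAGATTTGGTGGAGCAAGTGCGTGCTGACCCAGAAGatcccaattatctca
Trappc9: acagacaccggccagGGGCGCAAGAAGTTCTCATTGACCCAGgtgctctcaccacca
Sh3glb2: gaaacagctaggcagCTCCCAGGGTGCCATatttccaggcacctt
Atg7: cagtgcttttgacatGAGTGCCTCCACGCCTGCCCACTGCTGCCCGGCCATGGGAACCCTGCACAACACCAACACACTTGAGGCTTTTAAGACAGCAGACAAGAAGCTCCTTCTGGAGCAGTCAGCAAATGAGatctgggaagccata

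An intron-retaining transcript gave the intron bases around the remaining short events. Around the Sh3glb2 exon, 45 nt of intron on each side are in lower case. At the tandem donor of Large2 (chr2:92370563-92370565, minus strand), the 3 listed bases stand between 20 nt of exon and 20 nt of intron. They begin with gt and are followed by gt, so a donor can lie on either side of them.
Sh3glb2 with introns: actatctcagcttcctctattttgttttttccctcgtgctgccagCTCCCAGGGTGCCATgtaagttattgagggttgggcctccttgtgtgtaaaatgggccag
Large2 tandem donor: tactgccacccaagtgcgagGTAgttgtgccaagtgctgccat

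The first question was in which lists each event stood. Rufy3 (54 nt) and the 3-nt donor shift of Large2 were in all 3 lists. Gorasp2 (197 nt) was in lists 2 and 3, whereas Trappc9 (27 nt), Sh3glb2 (15 nt) and the 200-nt donor shift of Tex264 were in lists 1 and 3. The other 5 events were in a single list: the 121-nt and 151-nt exons of Atg7 in list 1, the 118-nt exon of Atg7 and the 76-nt retained intron of Yipf2 in list 2, and a 220-nt donor shift of Large2 in list 3. List 1 thus held 7 of the events among its 270, list 2 held 5 of 264 and list 3 held 7 of 257. In the series as a whole 2.81% of 20620 multi-exon protein-coding genes had a listed event and 0.592% had the same event in more than 1 list. The genes described here were taken from the lists, so nothing is read from the fact that they all had one.

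**Figure D1:**
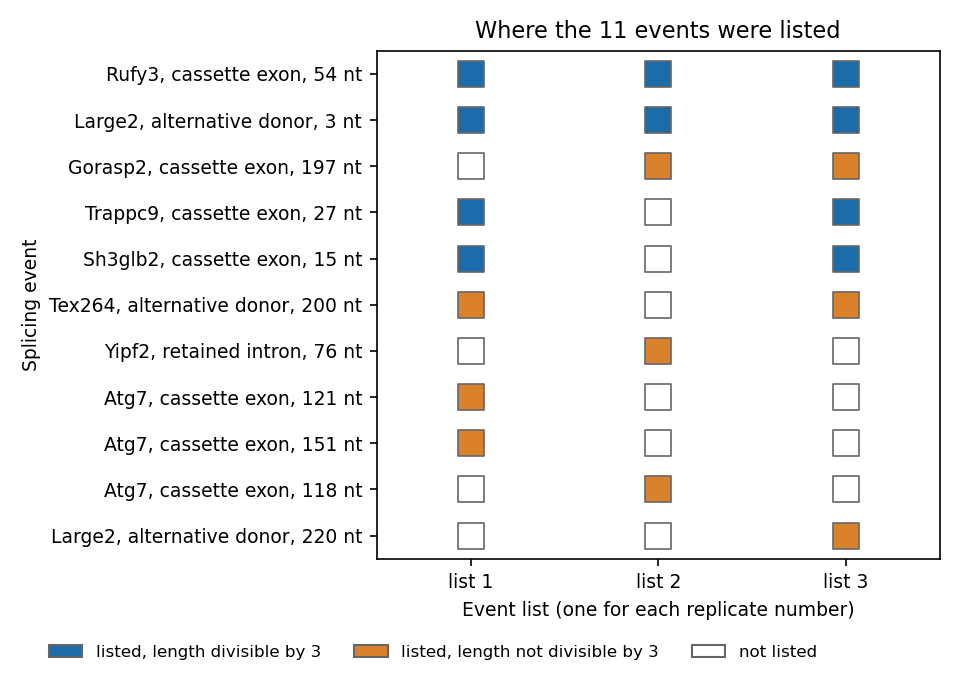
Each row is 1 of the 11 events and each column 1 of the 3 event lists. A filled square marks a listed event, blue where its length is divisible by 3 and orange where it is not, and an open square marks an event that was not listed. All 4 events with a length divisible by 3 stood in at least 2 lists, and 5 of the 7 others stood in 1.

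Of the 11 events, 6 were in more than 1 list (54.5%, 95% Wilson interval 28.0% to 78.7%), against 126 of all 643 distinct events (19.6%). In all 3 lists stood 2 of the 11 (18.2%, 5.14% to 47.7%), against 22 of the 643 (3.42%). The genes were proposed with this recurrence known, so the higher shares are a description of the choice. With 1 list left out, the count in more than 1 list could not rise. It was 3 without list 1, 5 without list 2 and 2 without list 3. The same counts were not made over all distinct events. Among the 4 events with a length divisible by 3 (Rufy3, Trappc9, Sh3glb2 and the short shift of Large2), all 4 were in more than 1 list, and among the 7 others 2 were (Gorasp2 and Tex264). Over all distinct events the corresponding shares were 18.6% of 393 and 21.2% of 250, so length divisible by 3 did not go with recurrence in the series as a whole. The line for Rufy3 stood 2 times in each list, and these 3 repeats were among the 14 repeated lines of the series. Each was counted once.

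By type, 7 events were cassette exons, 3 were donor shifts, 1 was a retained intron and 0 were acceptor shifts, against 97 acceptor shifts among all 643 events. The cassette exons ran from 15 nt in Sh3glb2 to 197 nt in Gorasp2, with a median of 118 nt, against a median of 81 nt over all 439 listed cassette exons. The donor shifts were 3 nt, 200 nt and 220 nt long, where the median over all 93 was 24 nt. A donor shift of exactly 3 nt was listed 6 times among the 93. None of the 9 events of 27 nt or more had its bases in transcripts of another gene, on either strand. The events therefore differed in kind, some adding or removing a few codons and others changing the 5′UTR or breaking the frame.

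**Figure D2:**
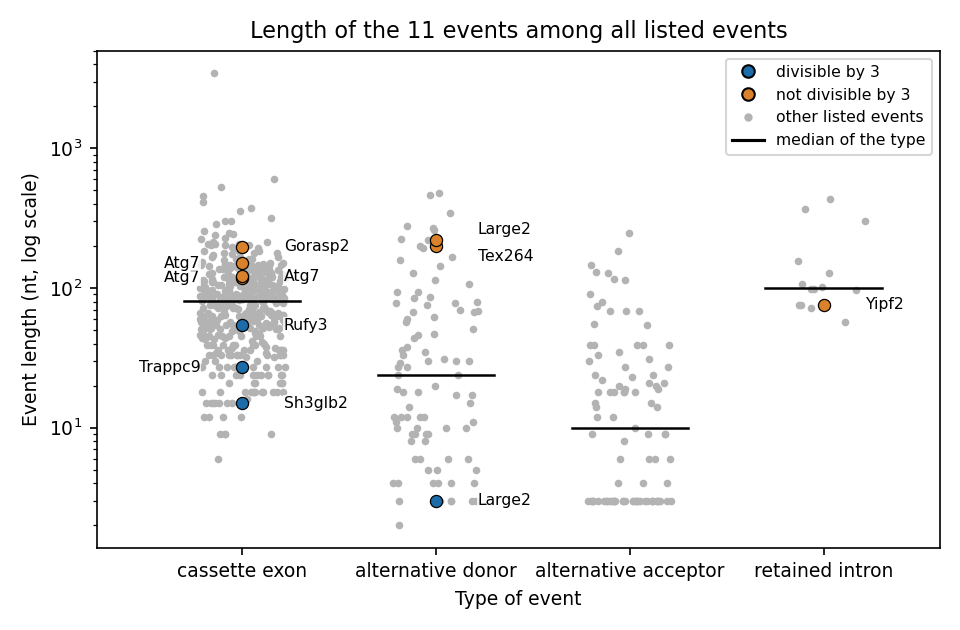
Length in nt of every listed event on a log axis, by type of event, with 1 small grey point for each. The 11 events are the large named points, blue where the length is divisible by 3 and orange where it is not, and the horizontal line is the median of the type (81 nt for cassette exons, 24 nt for donor shifts). The exons of Sh3glb2, Trappc9 and Rufy3 lie below the cassette median and those of Gorasp2 and Atg7 above it.

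Gorasp2 is a peripheral protein of the Golgi cisternae that helps to hold stacks together and is anchored through a lipid on its amino terminus. Its listed cassette exon of 197 nt (chr2:70672565-70672761, plus strand) was in lists 2 and 3 and lay 11.1 kb from the 5′ end of the gene. It is exon 2 of 11 in 1 protein-coding transcript and is spliced out in 3 others. That transcript starts translation within the exon and covers it with just 3 coding bases, so most of the exon is 5′UTR. Its reading frame holds 431 codons, against 451, 351 and 317 in the 3 coding transcripts without the exon, which start in exon 1. The event thus separates annotated isoforms with different starts and amino termini.

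Trappc9 is a subunit of a TRAPP tethering complex that acts on Rab GTPases at the Golgi, and the human gene is known for its loss in intellectual disability. Its exon of 27 nt was in lists 1 and 3. It was the shortest of 20 fully coding internal exons of the gene, the next being 86 nt. It lay 19 kb from the 5′ end, or 4.03% along a gene of 472 kb, between introns of 8391 nt and 10533 nt. The exon is annotated in 2 protein-coding transcripts (exon 4 of 22 in the longest) and spliced out in 3. Taking it out of that transcript after codon 98 lowered the reading frame from 960 to 951 codons and kept the stop in the last exon. In the other transcript with the exon the frame went from 940 to 931 codons. Its GC content was 55.6%, against a median of 50% over 438 listed cassette exons.

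Yipf2 is a Golgi protein with several membrane spans, of the family that interacts with Rab GTPases. Its event was a retained intron of 76 nt (chr9:21589559-21589634, minus strand), in list 2 alone. The intron begins with gt and ends with ag. It lies in the 3′UTR and is kept in 2 protein-coding transcripts and spliced out in 2. The reading frame holds 312 codons in 3 of the 4 and 122 in the other. In the 20 nt before its ag 75% of bases were C or T, the median over the acceptors that could be read. Over 40 nt the share was 72.5%, against a median of 65% (quartiles 57.5% and 70%). Retained introns were rare in the lists, with 14 among 643 events, of lengths from 57 nt to 434 nt. The neighbouring gene Carm1 spans the interval as well, and no source used here says whether read strand was taken into account when events were called, so the source gene is uncertain.

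Rufy3 carries a RUN domain and coiled coils, is abundant in neurons, and links endosomes and lysosomes to motor-driven transport. Its 54-nt exon, in all 3 lists, was the second shortest of 17 fully coding internal exons of the gene, after one of 28 nt. It lay between introns of 14118 nt and 16451 nt, 33.4 kb from the 5′ end. The exon is annotated in 2 protein-coding transcripts, as exon 3 of 15 in the longer, and is spliced out in 3. Without it the frame of 487 codons became one of 469, the codon number of another annotated transcript. The change fell after codon 59, near the amino terminus.

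Sh3glb2, or endophilin B2, is a BAR and SH3 domain protein of endosomal and other internal membranes. Its exon of 15 nt, in lists 1 and 3, was among 16 listed cassette exons of 15 nt or less. It is kept in 3 protein-coding transcripts, as exon 11 of 13 in the longest, and spliced out in 2. The gene also has a coding exon of 12 nt, which was not listed. Unlike the exons of Trappc9 and Rufy3, the 15-nt exon sat between short introns of 279 nt and 119 nt, and at 91.3% of the gene's length. Its removal turned 404 codons into 399, after codon 283, and in the other coding transcripts with the exon it turned 400 into 395 and 379 into 374. In the 20 nt before the ag of its acceptor, printed above, 80% of bases were C or T, against a median of 75% (quartiles 65% and 80%) over 14555 acceptors that could be read in intron-retaining transcripts. Over 40 nt the share was 80% as well, against a median of 65% (quartiles 57.5% and 70%).

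**Figure D3:**
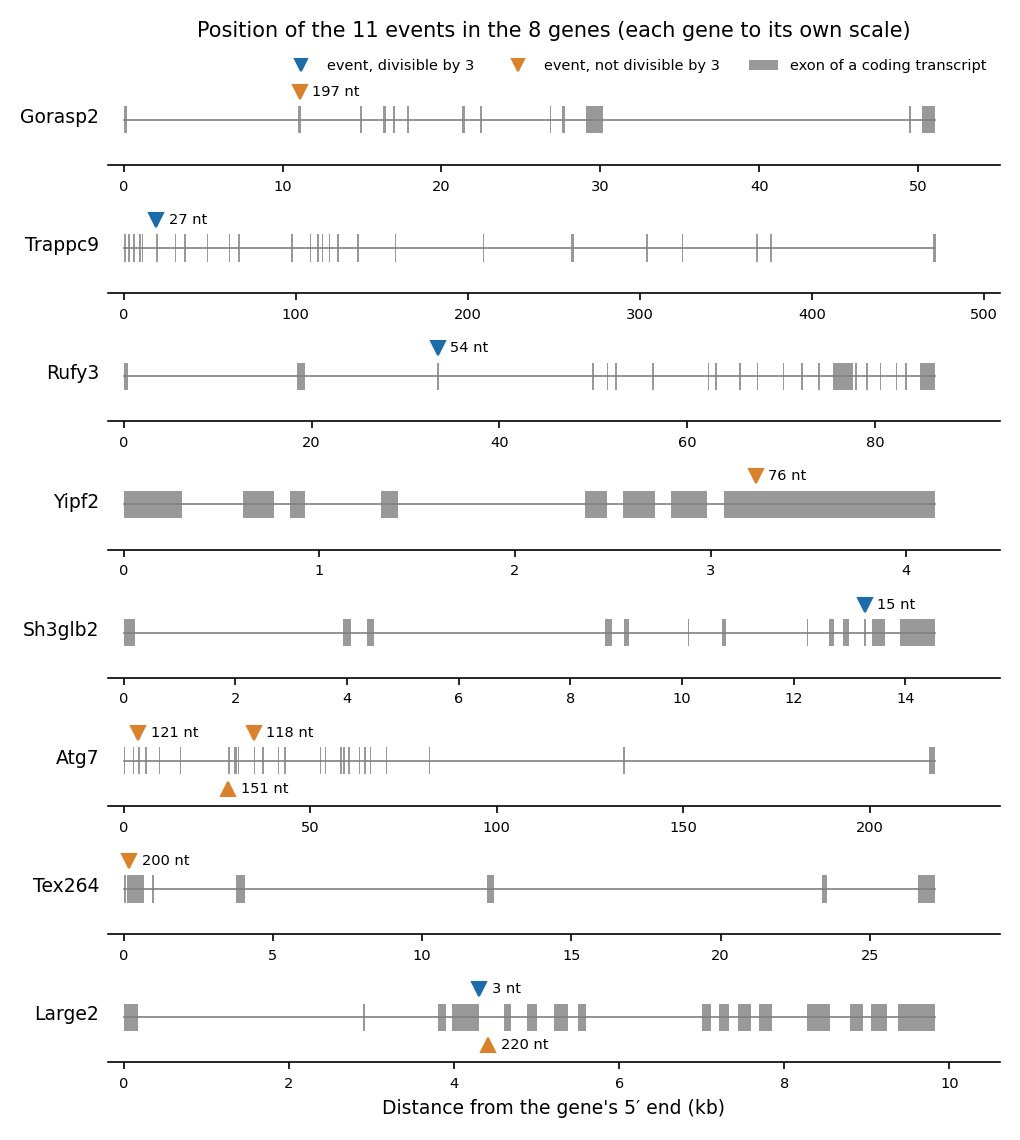
Position of the 11 events along the 8 genes, in kb from each gene's 5′ end, with each gene at its own scale. Grey boxes are exons of protein-coding transcripts and triangles are events, blue where the length is divisible by 3 and orange where it is not. Of the events, 9 lie in the first 50% of their gene, and those of Sh3glb2 and Yipf2 lie beyond it. The 9 include 3 events of Atg7 and 2 of Large2. No such count was made over all listed events, so no preference for a position is read from it.

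Atg7 is the activating enzyme of autophagy, which charges both Atg12 and the LC3 family for conjugation. It had 3 listed cassette exons and was 1 of 7 genes in the series with 3 or more distinct events. List 1 held exons of 121 nt (chr6:114646937-114647057) and 151 nt (chr6:114671102-114671252) at the 5′ end of the gene, both annotated as exon 2 of alternative transcripts. None of the 17 annotated Atg7 transcripts holds both. The 121-nt exon is 5′UTR in full, and leaving it out of the coding transcript of 20 exons kept all 698 codons. The 151-nt exon is 5′UTR in 1 coding transcript, which also kept 698 codons without it. In another it carries 110 coding bases with the start codon, and the frame there holds 741 codons. The intron before the 121-nt exon is 3786 nt long and that before the 151-nt exon 27951 nt, so both exons follow the first exon at very different distances. Both are thus alternative exons near the 5′ end of the mRNA.

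The third Atg7 exon, in list 2, was another kind of event. Its 118 nt, printed above, are coding and fall after codon 67 of 698. It is held whole by 9 protein-coding transcripts and spliced out in 0 of the 17, so skipping it gives no annotated isoform. Leaving it out shifted the frame and gave a stop after 72 codons, 5 codons past the junction and 1727 nt before the last exon junction. In the remaining complete coding transcripts with the exon the frame came to 72 or 115 codons. Stops that far upstream of the last junction usually expose an mRNA to nonsense-mediated decay. Whether such an mRNA arose was not measured. Over the series, 69 of 433 cassette exons with both edges matched (15.9%) had no annotated transcript that skips them. They were in more than 1 list in 7 cases (10.1%), against 80 of the other 364 (22%).

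Tex264 is a receptor that brings fragments of endoplasmic reticulum to the autophagosome. Its event was a donor shift of 200 nt (chr9:106685635-106685834, minus strand) in the first exon, 0.193 kb from the 5′ end, in lists 1 and 3. The longer first exon is held whole by 2 non-coding transcripts and by 0 of the 3 coding ones, of which 1 splices it out. Translation starts in exon 3, so adding the bases left the frame of 309 codons unchanged. The 200 bases had a GC content of 75%, against a median of 57.1% over 89 listed donor shifts whose bases could be read.

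Large2 is a Golgi glycosyltransferase that extends a sugar chain on alpha-dystroglycan, the chain through which the cell surface grips laminin. Its donor shifts of 3 nt and 220 nt extend the same exon, which is exon 3 in the transcript of 690 codons. The 3-nt shift, in all 3 lists, adds the codon GTA after codon 66 and takes the frame from 690 to 691 codons. In 2 other coding transcripts it falls after codon 91 and takes the frame from 715 to 716, and in the remaining one from 655 to 656. It is annotated in 2 coding transcripts and spliced out in 4. The 220-nt shift (chr2:92370346-92370565, minus strand), in list 3 alone, contains those 3 bases and ends before another gt. Adding it gave a stop after 92 codons, in exon 3 itself and 1804 nt before the last junction, and the annotation gives the same 92 codons for a transcript of the nonsense-mediated decay class. The transcript of 655 codons also came to 92, while those of 715 codons came to 117, with the stop in exon 2. Both start at the same base and stood together in list 3, so they are not independent of each other. When any overlap with an event of another list counted as support, the 220-nt shift was supported by the 3-nt one it contains, and 7 rather than 6 of the 11 had support from more than 1 list.

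**Figure D4:**
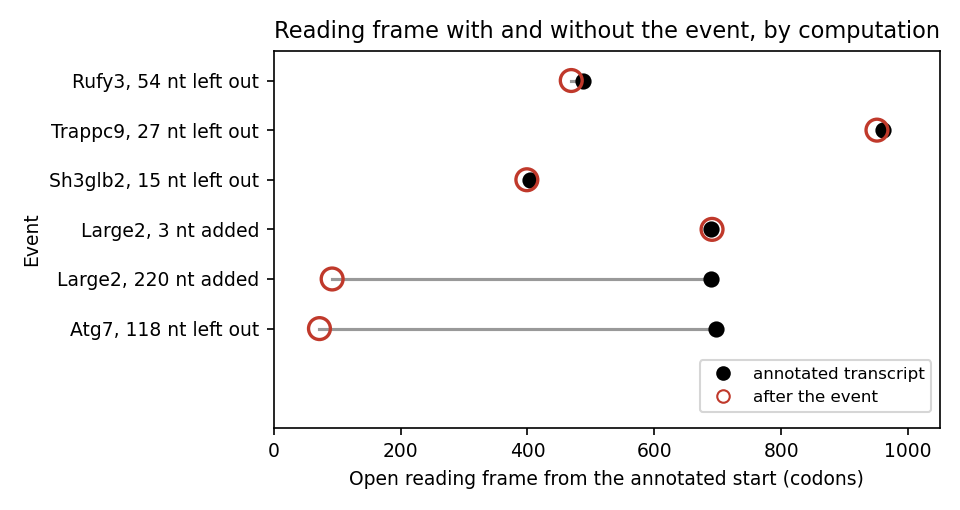
Length in codons of the open reading frame from the annotated start, before (black) and after (red ring) each event was spliced out of, or into, 1 annotated transcript of the gene. The frame changed by 18, 9 and 5 codons for Rufy3, Trappc9 and Sh3glb2 and by 1 for the 3-nt shift of Large2, while the 220-nt shift of Large2 left 92 codons and the loss of the 118-nt exon of Atg7 left 72.

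The events were next placed in the mRNA. Coding sequence was touched by 8 of the 11 (72.7%, 43.4% to 90.3%), a 5′UTR by 4 (36.4%, 15.2% to 64.6%) and a 3′UTR by 1, that of Yipf2 (9.09%, 1.62% to 37.7%). For all 643 events the shares were 67.0%, 25.2% and 5.91%, each within these intervals. Counting protein-coding transcripts alone, coding sequence covered just 3 bases of the Gorasp2 exon and of the 220-nt shift of Large2. Those of the Large2 shift are the same 3 bases as its shorter shift. A length divisible by 3 was found in 4 of the 11 (36.4%), below the 61.1% of all events and within the interval of 15.2% to 64.6%. Of the 5 events wholly within coding sequence, 4 had such a length, the exception being the 118-nt exon of Atg7. Among the remaining 91 internal exons of the 8 genes that are fully coding, 41 did (45.1%, 35.2% to 55.3%). That share is of exons, while 1 of the 4 is the shorter donor shift of Large2. The share over all wholly coding events of the series was not computed, so nothing is read from the 4 of 5.

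The words that the study names for Sfpq binding were then searched in the transcript strand of each event, namely CTGT or CTGA and, separately, any base followed by TGTA. The former can overlap the latter, as in CTGTA. CTGT or CTGA was found in 7 of the 11 events and NTGTA in 3 (Gorasp2, Yipf2 and the 220-nt shift of Large2). Over the 635 events whose bases could be read, 48.8% and 16.5% held them. Among events of 15 nt or more, CTGT or CTGA was in 70% of the 10 described here and in 56.7% of all 540. Per 100 nt the 11 events held 1.02 and 0.338 such words, against 1.19 and 0.246 in all events. The 54-nt exon of Rufy3 held CTGA once, which 36.0% of 1258 internal exons of that length hold with CTGT. For the other events with CTGT or CTGA, from 59.6% (Yipf2) to 93.4% (220-nt shift of Large2) of internal exons as long hold it. The exons of Trappc9 and Sh3glb2 held neither word, and of exons as long 22.3% of 332 and 16% of 94 hold CTGT or CTGA. The 118-nt exon of Atg7 also held neither, where 70.6% of 1335 exons of that length hold CTGT or CTGA.

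Finally, the 8 genes were set within 11 lists of genes of the same pathways. An event was listed for 25 of 286 genes (8.74%, 5.99% to 12.6%), and without the 8 genes for 17 of 278 (6.12%, 3.85% to 9.57%), beside the 2.81% of all multi-exon protein-coding genes. Neither exon number nor expression was matched in that comparison, and their part in this share was not tested. The 11 lists were also chosen with earlier results of these data known, Vti1a and Fcho1 among them. Leaving out the 8 genes does not undo that choice, so no enrichment is read from these shares. Among genes with an annotated cassette exon the share was 16.9% of 130 pathway genes, 12.2% (7.53% to 19.1%) without the 8, and 6.27% of 6870 genes. The autophagy core list held 5 of 40. They were Atg7, Atg16l1 (57-nt exon, a scaffold of LC3 conjugation) and Atg16l2 (63-nt exon). The others were Atg9a (acceptor shifts of 3 nt and 248 nt, the membrane-spanning scramblase) and Rubcn (45 nt, an inhibitor of autophagosome maturation). None of these events was in more than 1 list.

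**Figure D5:**
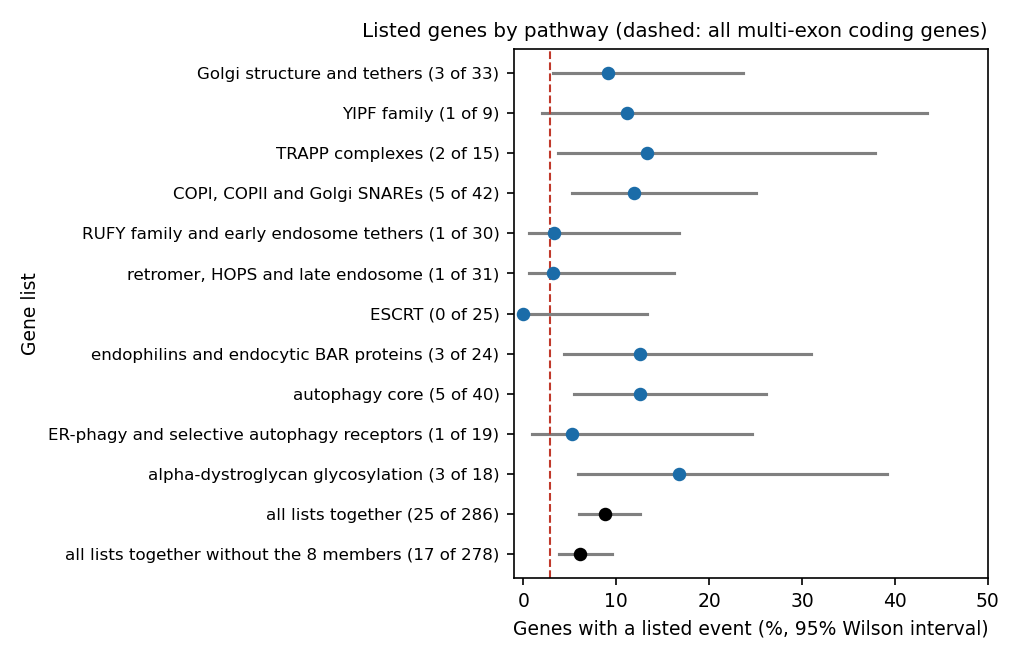
Share of genes with a listed event in each pathway list, in percent, with 95% Wilson intervals (bars) and the counts beside each name. The dashed line is the 2.81% of all multi-exon protein-coding genes, and the black points are all lists together, with (8.74%) and without (6.12%) the 8 genes. The pathway lists were chosen with earlier results of these data known.

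Among the traffic lists, COPI, COPII and Golgi SNAREs held 5 of 42 genes: Arfgap1, Sar1a, Sec23b and Sec31a, which build or trim vesicle coats, and Vti1a, a SNARE with a 21-nt exon in all 3 lists. Golgi structure and tethers held 3 of 33 (Gorasp2, Gopc and Gorab) and the TRAPP complexes 2 of 15, with an 18-nt exon of Trappc13 beside the 27-nt one of Trappc9. Endophilins and other endocytic BAR proteins held 3 of 24, where Fnbp1, like Sh3glb2, had an exon of 15 nt, and Fcho1 had a 4-nt donor shift in all 3 lists. Alpha-dystroglycan glycosylation held 3 of 18: Large2, the glycosyltransferase gene Pomgnt2 and Dag1, the gene of dystroglycan itself. Retromer, HOPS and late endosome held 1 of 31, Rab7, the late endosomal GTPase, with a 135-nt exon of the 5′UTR in lists 1 and 2. The RUFY family and early endosome tethers held 1 of 30 (Rufy3), the ER-phagy and selective autophagy receptors 1 of 19 (Tex264), the YIPF family 1 of 9 (Yipf2) and the ESCRT genes 0 of 25 (upper limit of the interval 13.3%).

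These 17 other genes had 19 events. A length divisible by 3 was found in 15 of the 19 (78.9%), beside 4 of the 11 and 61.1% of all events. It was found in all 11 of their cassette exons, 9 of which touched coding sequence and ran from 15 nt to 120 nt, beside 3 of the 7 cassette exons in the 8 genes (not those of Gorasp2 and Atg7) and 61.5% of all cassette exons. No difference between these groups was tested, since the 8 genes were chosen with the lists in view. Of the 19, 5 were in more than 1 list, beside the 19.6% of all events, namely the pair of Vti1a events and those of Fcho1, Rab7 and Sec23b. The second Vti1a event, an 11-nt donor shift, matched just 1 edge, whereas the events of the 8 genes had to match both.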

How the data were processed

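RNA of 3 control and 3 knockdown P19 samples was sequenced as paired ends. The labels name a NEBNext directional kit and the study's methods a TruSeq stranded one, so the kit is uncertain. The submitters' processing notes name cutadapt, STAR, Bowtie2 and mm10 with no version. Differential splicing was called with SpliceTrap, according to the methods. The authors deposited event positions and type codes, per the file headers, and no counts or other levels. No source used here gives the cutoff that put an event on a list. Nothing states that numbered samples came from separate cultures, so what lists share may be technical.

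A start was raised by 1, repeated lines were counted once, and 1 event with an unreadable start was left out. Each event went to the GENCODE M21 gene whose edges it matched best, both edges in 622 of 643. The matching was tested on annotated exons and introns. Frames were computed by splicing each event into or out of coding transcripts with annotated start and stop codons. Shares have 95% Wilson intervals, which cover the counting of events alone. No significance test was run, because the members came from the lists. The rule for named genes took the 8 genes, every gene of the 11 lists with an event, and Sfpq. The members and the 11 gene lists were chosen with earlier results of these data known (Vti1a and Fcho1 among them), and 3 listed symbols did not match. No genome was used here, so introns were read from intron-retaining transcripts. The scripts ran under Python 3.11.15, with scipy 1.17.1, numpy 2.4.6 and, for figures, matplotlib 3.10.9.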

Additional observations from a re-analysis of the deposited data

How the results depend on the processing

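The lists carry no error for an event, and depth is unknown, so a wrong listing cannot be told from a right one. Leaving out 1 list at a time, the events numbered 9 to 10 (of 11), those in more than 1 list 2 to 5 (of 6), those touching coding sequence 7 (of 8), those with a length divisible by 3 stayed at 4, and pathway genes with an event numbered 20 to 22 (of 25). The count of 4 could not fall, since each of those events was in more than 1 list. Pathway genes with an event fell from 25 to 10 when the event had to be in more than 1 list and to 16 with cassette exons alone. Without the 8 genes, which were proposed with their recurrence known, 4 of 278 had an event in more than 1 list. Over all multi-exon protein-coding genes the share with such an event was 0.592%. The share of pathway genes with any event rose from 8.74% to 16.9% among genes with an annotated cassette exon. Counting every line gave 22 listings of the events instead of 19, through Rufy3. With the 50% rule 6 events lay in coding sequence. With the core TGT, 6 events held the word, against 7. No paired analysis was possible because the lists hold outcomes of a comparison and no value for a sample. Motif words in 200 nt or 100 nt of flank were not run, since no genome sequence was used here.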
